A study of Mus musculus with 4 samples.

Results

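The immunoglobulin heavy chain locus of the mouse lies on chromosome 12 and was described here in the leukemia line T8, with and without restored IRF4. Members were all genes of the count table whose GENCODE M21 type begins with IG_ on chromosome 12, which gave 233 of 55359 genes. They comprised 115 V genes, 81 V pseudogenes, 19 D genes, 3 D pseudogenes, 4 J genes, 8 constant genes, 1 constant pseudogene and 2 pseudogenes without a class. T8 is a preB acute lymphoblastic leukemia line that was grown out of the tumor of an Irf4-/- mouse. Both groups were Irf4-/- T8 cells. EV-RV cells were transduced with a retrovirus carrying GFP alone, and IRF4-RV cells with a retrovirus carrying GFP and IRF4. RNA was sequenced the day after transduction, with 2 libraries per group (EV-RV 1 and 2, IRF4-RV 1 and 2). All libraries came from a single line, so the p-values measure only the spread between these samples. The submitters call them biological replicates, and whether each came from a separate transduction is not given in the sources used here.

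A heavy chain gene is assembled in the precursor B cell by recombination. A D segment is first joined to a J segment, and a V segment is then joined to the DJ unit. The assembled exon is spliced to the nearest constant gene, Ighm, which encodes the μ chain. In a preB cell the μ chain pairs with the surrogate light chain (VpreB and λ5) and the signaling chains CD79A and CD79B, and later with a κ or λ light chain. IRF4 is a transcription factor known for its part in light chain recombination and in the plasma cell program.

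The libraries held between 31230223 and 37817752 counts. A count of 3, the lowest level taken as detected, lay at 0.0824 to 0.0952 CPM (counts scaled to library size with TMM factors). This limit covers counting error only. Irf4 was counted 8070 and 7600 times with EV-RV, against 95578 and 90693 with IRF4-RV, a log2 fold change of 3.46 (edgeR adjusted p = 1.14e-06, standard error 0.09). The counts are per gene, so that exons left in the Irf4-/- allele, the endogenous gene and the vector cannot be told apart. Of 14637 genes tested, 29.7% were called at an FDR of 0.1, 16.0% higher and 13.7% lower with IRF4-RV. Scaled by library size only, 37.8% of the called genes were higher, against 53.8% with TMM factors. Over all genes the log2 fold change had a median of 0.01 with TMM factors and -0.08 with library size only.

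The cell type of the libraries was checked with marker genes. The B lineage markers Cd79a, Cd79b, Pax5 and Ebf1 were present at means of 99.2 to 916 CPM in both groups, and the recombinase gene Rag1 held at most 1 count in any library. T and NK cell, macrophage, granulocyte and erythroid markers summed to at most 5.11 CPM per list and library, with Cd8a, Ncr1, Adgre1, S100a8 and S100a9 at 0 counts in all 4 libraries. Stromal markers summed to 46.8 and 87.4 CPM with EV-RV, against 45.9 and 217 CPM with IRF4-RV, where 0 of 5 tested markers were called. Dcn held 0, 0, 2 and 0 counts. IRF4-RV 2 stood apart in this list, and heavy chain results without that library are given below. Of 10 B lineage markers, 1 was higher and 3 were lower, and the sum of the list was 3627 and 3793 CPM with EV-RV, against 2719 and 2696 CPM with IRF4-RV. Of 6 plasma cell markers, 3 were higher (Prdm1, Xbp1 and Slamf7) and 1 was lower (Sdc1), and the list summed to 177 and 196 CPM with EV-RV, against 351 and 366 CPM with IRF4-RV. Tnfrsf17 held 0, 0, 4 and 0 counts. Of 5 mature B cell markers, Cd22 was higher and 0 were lower, and the sum was 390.5 and 380.0 CPM with EV-RV, against 486 and 475 CPM with IRF4-RV. The part of these lists in the results on the heavy chain was not tested. In bulk RNA, fewer cells of a type and less RNA per cell cannot be told apart.

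The segments that carried the heavy chain counts are shown as they stand in GENCODE M21 (GRCm38), 5′ to 3′ on the coding strand. All lie on the minus strand of chromosome 12. Ighd4-1 (chr12:113430528-113430538) was the single D gene with at least 3 counts in a library. Ighj3 (chr12:113429085-113429132) and Ighj4 (chr12:113428514-113428567) were counted, and Ighj1 (chr12:113429781-113429833) and Ighj2 (chr12:113429468-113429567) had 0 counts in all 4 libraries. The Ighj2 sequence shown is that of a transcript of 48 bases, shorter than the annotated gene of 100 bases. In the J segments, capitals mark the motif of TGGGG, any 4 bases and GG, which encodes the conserved tryptophan and glycines of the J region.
Ighd4-1: ctaactgggac
Ighj1: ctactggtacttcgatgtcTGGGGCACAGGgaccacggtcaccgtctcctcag
Ighj2: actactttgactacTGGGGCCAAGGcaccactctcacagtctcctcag
Ighj3: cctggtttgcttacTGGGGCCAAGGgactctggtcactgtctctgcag
Ighj4: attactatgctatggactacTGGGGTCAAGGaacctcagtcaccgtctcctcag
The motif, searched on the coding strand, was present in 4 of 4 heavy chain J genes and in 0 of 10 light chain J transcripts. It was chosen to mark heavy chain J genes, so this contrast follows from the choice. The J genes shared between 62.5% (Ighj3 and Ighj4) and 75% of their aligned bases, so that the 2 counted J genes were the least alike pair.

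The V segments with the most counts were Ighv1-2 (chr12:114469075-114469535), annotated as a V pseudogene, and the V genes Ighv1-82 (chr12:115952538-115953005) and Ighv1-64 (chr12:115507545-115508031). The last 120 bases of each transcript are shown because they reach the conserved cysteine codon (tgt) and the end at which a V segment is joined. Capitals mark the last 3 bases.
Ighv1-2: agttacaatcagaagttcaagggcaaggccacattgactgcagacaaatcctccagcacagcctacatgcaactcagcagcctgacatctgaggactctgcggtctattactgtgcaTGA
Ighv1-82: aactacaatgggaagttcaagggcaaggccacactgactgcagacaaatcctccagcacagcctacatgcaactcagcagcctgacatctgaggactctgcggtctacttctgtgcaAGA
Ighv1-64: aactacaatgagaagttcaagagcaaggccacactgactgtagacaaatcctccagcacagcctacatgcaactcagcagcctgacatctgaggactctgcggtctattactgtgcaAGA
Read from its first base, the Ighv1-2 transcript of 378 bases held 125 codons before its single in-frame stop codon, which was the last codon, number 126. Of 183 V segments with a symbol beginning with Ighv, each symbol counted once, 64 had a transcript ending in TGTGCAAGA. In 1 it ended in TGTGCATGA and in 4 it ended in TGA. Ighv1-2 was identical to Ighv1-82 at 85.3% of aligned bases and to Ighv1-64 at 82.6%. The segment most similar to it was Ighv1-5, at 90.8%, which held 0, 0, 0 and 1 counts.

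Counts were concentrated in few members. Of the 233 members, 223 had fewer than 3 counts in every library and were listed as silent, and 192 of these had 0 counts in all 4 libraries. The 10 that were not silent were Ighm, Ighd, Ighg2b, Ighj3, Ighj4, Ighd4-1, Ighv1-2, Ighv1-4, Ighv1-64 and Ighv1-82. Among the V segments, 4 of 196 were not silent, all of V family 1, which has 93 members. For comparison, 39 of 178 V segments of the κ light chain locus on chromosome 6 were not silent. All heavy chain members together held 0.2399% and 0.2378% of counts with EV-RV, against 0.3015% and 0.3005% with IRF4-RV.

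**Figure D1:**
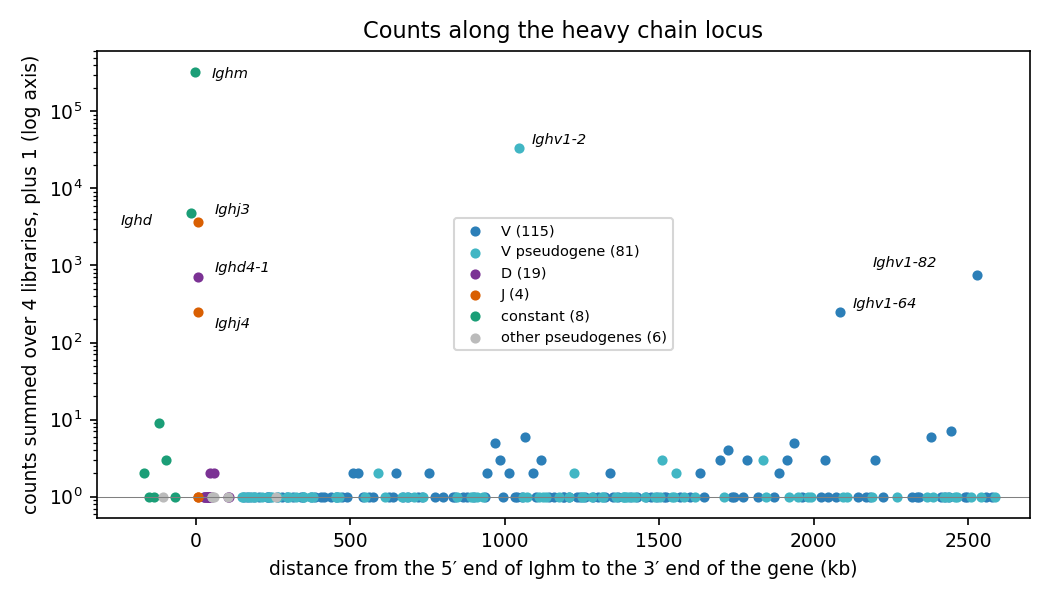
Counts of all 233 heavy chain genes, summed over the 4 libraries plus 1 (log axis), against the distance in kb from the 5′ end of Ighm to the 3′ end of each gene, which is positive toward the V segments. Each point is a gene colored by class, and the labelled genes stand above all others, with the remaining members at a total of 8 counts or fewer.

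Ighd4-1, the counted J genes and Ighm lay close together, whereas the counted V segments were far from them, with nearly empty stretches between. Between Ighv1-2 and Ighd4-1 lie 1038536 bases with 104 members, of which 93 had 0 counts and 0 passed the limit of 3. Together they held 1, 4, 8 and 2 counts in EV-RV 1, EV-RV 2, IRF4-RV 1 and IRF4-RV 2. The stretch of 1395 bases between Ighd4-1 and Ighj3 contains Ighj1 and Ighj2, both at 0. Beyond Ighv1-2, away from the constant genes, 114 members held 245, 191, 305 and 291 counts, most of them in Ighv1-82 and Ighv1-64. From Ighj3 to the last constant gene, 10 members held 68351, 66981, 93407 and 101189 counts. In the plot of counts along the locus these stretches appear as rows of points at or near the base line.

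Of the 233 members, 8 passed the filter on low counts, and all 8 held at least 39 counts in every library. With IRF4-RV, 6 of them were higher, 0 were lower (also 0 by DESeq2, and 0 at an unadjusted p under 0.05) and 2 were not called, against 16.0% of all genes tested called higher. For each of the 8, both IRF4-RV libraries lay above both EV-RV libraries in CPM, which was so for 31.3% of all genes tested. The log2 fold changes ranged from 0.38 to 0.89 with a median of 0.54, against a median of 0.01 over all genes. The 8 genes lie in a single locus, and a read of an assembled transcript can touch several of them, so they are not independent measurements. Without IRF4-RV 2, the library with the highest stromal marker sum, the log2 fold changes of the 8 ranged from 0.40 (Ighm) to 0.96 (Ighj4). Summed over all 233 members, the level was 2317 ± 55.1 CPM with EV-RV, against 3108 ± 18.4 CPM with IRF4-RV (SD, n = 2 each), a log2 ratio of 0.42.

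**Figure D2:**
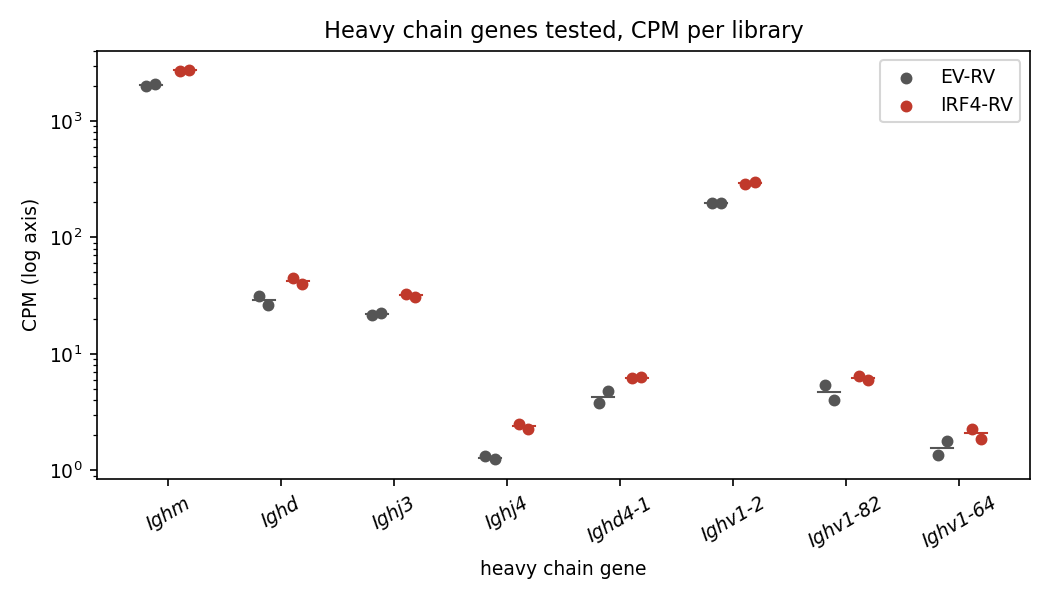
CPM (log axis) of the 8 heavy chain genes tested, with a point for each library and a line at the mean of each group of 2. In each gene both IRF4-RV libraries (red) lie above both EV-RV libraries (grey), and the highest levels are those of Ighm and Ighv1-2.

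Among the constant genes, Ighm and Ighd were higher with IRF4-RV and the downstream isotypes were nearly without counts. Ighm (ENSMUSG00000076617, chr12:113418558-113422730) was counted 67250 and 66111 times with EV-RV, against 91794 and 99643 with IRF4-RV. Its level was 2056 ± 57.4 CPM with EV-RV, against 2724 ± 18.8 CPM with IRF4-RV (SD, n = 2 each), which gave a log2 fold change of 0.41 (edgeR adjusted p = 0.00509, standard error 0.07). The groups did not overlap, and the smaller spread was in IRF4-RV. Ighd (ENSMUSG00000104213, chr12:113406604-113416324), which encodes the δ chain and is made from the same primary transcript as μ by alternative splicing, was counted 1057 and 830 times with EV-RV, against 1525 and 1457 with IRF4-RV. On the log2 scale the fold change was 0.55 (edgeR adjusted p = 0.0125, standard error 0.12), from 29.0 ± 3.79 CPM to 42.5 ± 3.54 CPM (SD, n = 2 each). Without IRF4-RV 2, the log2 fold change was 0.40 for Ighm (edgeR adjusted p = 0.0402) and 0.64 for Ighd (edgeR adjusted p = 0.000308).

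Relative to Ighm in the same library, Ighd held 1.57% and 1.26% with EV-RV, against 1.66% and 1.46% with IRF4-RV. These shares overlapped between the groups. Per kb of exon, Ighm was at 1090 ± 30.5 CPM per kb and Ighd at 15.3 ± 1.99 CPM per kb with EV-RV (SD, n = 2), and at 1444 ± 9.95 and 22.4 ± 1.86 CPM per kb with IRF4-RV (SD, n = 2).

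The γ, ε and α genes are reached by class switch recombination, in which the assembled V exon is moved next to a downstream constant gene. Ighg2b (chr12:113302965-113307933) held 0 and 1 counts with EV-RV, against 3 and 4 with IRF4-RV. Ighg1 held 0, 0, 0 and 2 counts and Igha 0, 0, 1 and 0, in the order EV-RV 1, EV-RV 2, IRF4-RV 1 and IRF4-RV 2. Ighe, Ighg2c, Ighg3 and the constant pseudogene Gm37944 had 0 counts in all 4 libraries, where a count of 0 allows a level of up to 0.0824 to 0.0952 CPM. None of the 6 downstream constant genes and the pseudogene passed the filter, so that no difference was tested for them.

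Both counted J genes were higher with IRF4-RV. The J segments are shorter than the usual sequencing read, so a read counted for one also covers its surroundings, and J and D genes were not compared per length. Ighj3 (ENSMUSG00000076619) was counted 721 and 702 times with EV-RV, against 1115 and 1115 with IRF4-RV. On the log2 scale the fold change was 0.53 (edgeR adjusted p = 0.00537, standard error 0.09), from 21.9 ± 0.463 CPM to 31.8 ± 1.62 CPM (SD, n = 2 each). Ighj4 (ENSMUSG00000076618), the J gene closest to Ighm at a gap of 5783 bases, was counted 44 and 39 times with EV-RV, against 84 and 83 with IRF4-RV. Its log2 fold change of 0.89 (edgeR adjusted p = 0.0435, standard error 0.26) was the highest among the 8 members tested. That call was lost without EV-RV 1 (log2 fold change 0.93, edgeR adjusted p = 0.126), without EV-RV 2 (0.85, edgeR adjusted p = 0.143) and without IRF4-RV 1 (0.81, edgeR adjusted p = 0.15), and with DESeq2 (adjusted p = 0.154). Over the alternatives its adjusted p ranged from 0.0121 to 0.154.

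Ighj4 counts amounted to 6.10% and 5.56% of Ighj3 counts with EV-RV, against 7.53% and 7.44% with IRF4-RV. Relative to Ighm, Ighj3 held 1.07% and 1.06% with EV-RV, against 1.22% and 1.12% with IRF4-RV, and Ighj4 held 0.0654% and 0.0590% against 0.0915% and 0.0833%. These 3 shares did not overlap between the groups. With 2 libraries against 2, the exact permutation test cannot give a two-sided p below 0.333, so that test could not reach 0.05 for these shares.

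The only D gene of the 19 to pass the limit was Ighd4-1 (ENSMUSG00000094028), with 125 and 151 counts with EV-RV, against 208 and 232 with IRF4-RV. Its annotated length is 11 bases, and it is the D gene nearest to the J genes. The log2 fold change was 0.55 (edgeR adjusted p = 0.0568, standard error 0.17), from 4.27 ± 0.737 CPM to 6.26 ± 0.163 CPM (SD, n = 2 each). The call was lost without EV-RV 1 (log2 fold change 0.38, edgeR adjusted p = 0.243), with DESeq2 (adjusted p = 0.16) and at an FDR of 0.05. Over the alternatives the adjusted p ranged from 0.00613 to 0.243. Ighd1-1 and Ighd5-2 held a single count each, and the other 16 D genes and 3 D pseudogenes had 0 in all 4 libraries.

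Relative to Ighj3, Ighd4-1 held 17.3% and 21.5% with EV-RV, against 18.7% and 20.8% with IRF4-RV. The groups overlapped in this share, and also in the share of Ighm, which was 0.186% and 0.228% with EV-RV, against 0.227% and 0.233% with IRF4-RV.

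The V segment counts were almost all in Ighv1-2 (ENSMUSG00000102524), which was counted 6560 and 6249 times with EV-RV, against 9790 and 10813 with IRF4-RV. It held 96.4% of all V counts in EV-RV 1 (exact 95% interval 95.9 to 96.8), 97.0% in EV-RV 2 (96.5 to 97.4), 96.9% in IRF4-RV 1 (96.5 to 97.2) and 97.4% in IRF4-RV 2 (97.1 to 97.7). The groups overlapped in this share. Its level was 197 ± 1.12 CPM with EV-RV, against 293 ± 5.61 CPM with IRF4-RV (SD, n = 2 each), which gave a log2 fold change of 0.57 (edgeR adjusted p = 0.00101, standard error 0.07). Without IRF4-RV 2 it was 0.55 (edgeR adjusted p = 0.000838). Ighv1-2 overlaps the microRNA gene Mir7094-1, and whether reads in the overlap were counted is not given in the sources used here.

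Per kb of exon, Ighv1-2 was at 522 ± 2.96 CPM per kb with EV-RV and 775 ± 14.8 CPM per kb with IRF4-RV (SD, n = 2), which was below Ighm and above Ighd in both groups. Its count relative to Ighm was 9.76% and 9.45% with EV-RV, against 10.7% and 10.9% with IRF4-RV. These shares did not overlap, although the log2 ratio between the groups was 0.16. For comparison, the κ constant gene Igkc held 8.80% and 8.89% of the Ighm count with EV-RV, against 16.9% and 17.2% with IRF4-RV, a log2 ratio of 0.95. Among the heavy chain genes tested, the largest such log2 ratio was 0.49, that of Ighj4. The differences between these ratios were not tested.

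**Figure D3:**
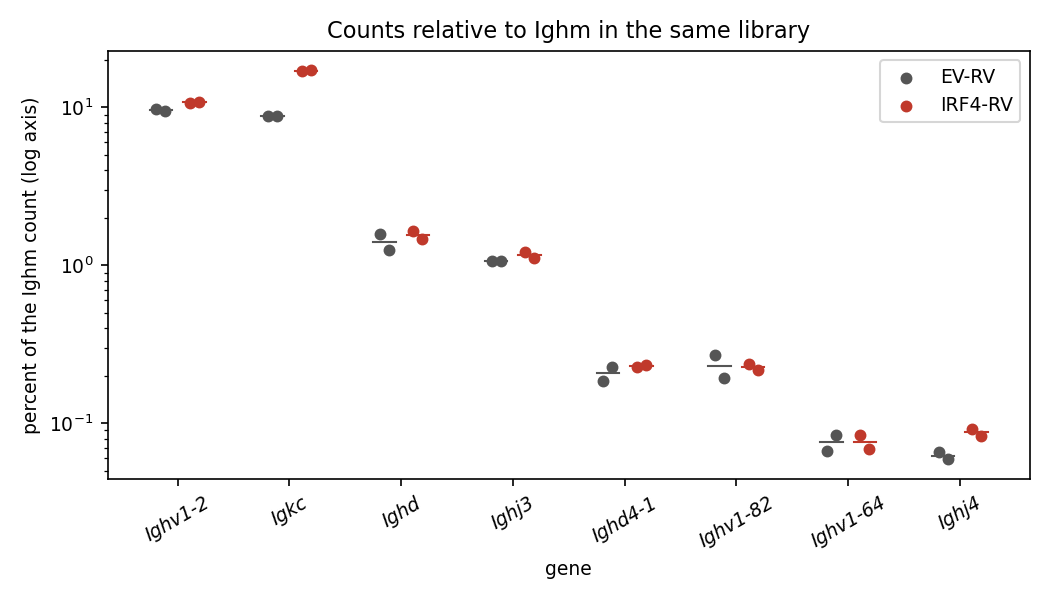
Counts of 7 heavy chain genes and of Igkc as a percentage of the Ighm count of the same library (log axis), with a point for each library and a line at the mean of each group of 2. Igkc lies at 8.80% and 8.89% with EV-RV and at 16.9% and 17.2% with IRF4-RV, while Ighd, Ighd4-1, Ighv1-82 and Ighv1-64 overlap between EV-RV (grey) and IRF4-RV (red).

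The next V genes were counted at far lower levels. Ighv1-82 (ENSMUSG00000095127), the counted V segment farthest from the constant genes, was counted 181 and 127 times with EV-RV, against 218 and 215 with IRF4-RV. On the log2 scale the fold change was 0.38 (edgeR adjusted p = 0.187, standard error 0.18) and not called. Without EV-RV 1 it was 0.61 and past the threshold (edgeR adjusted p = 0.086), and without EV-RV 2 it was 0.19 (edgeR adjusted p = 0.555). Ighv1-64 (ENSMUSG00000094088) was counted 45 and 56 times with EV-RV, against 77 and 68 with IRF4-RV, a log2 fold change of 0.41 (edgeR adjusted p = 0.358, standard error 0.28) that was not called. It was 0.21 without EV-RV 1, 0.62 without EV-RV 2 and 0.24 without IRF4-RV 1, with edgeR adjusted p values of 0.757, 0.316 and 0.754. Both genes had non-overlapping groups, at CPM per kb of 12.2 ± 2.56 and 16.0 ± 0.974 for Ighv1-82 and 3.86 ± 0.746 and 5.11 ± 0.709 for Ighv1-64 (SD, n = 2 each, EV-RV and IRF4-RV).

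Relative to Ighm, Ighv1-82 held 0.269% and 0.192% with EV-RV, against 0.238% and 0.216% with IRF4-RV. Its groups overlapped, as did those of Ighv1-64. With the V pseudogenes left out of the V total, Ighv1-82 was the leading V gene, at 74.2% and 66.2% with EV-RV, against 70.3% and 73.6% with IRF4-RV. Ighv1-4 (chr12:114487136-114487569) held 0, 3, 0 and 2 counts. After the leading 3, the highest totals over the 4 libraries were 6 counts for Ighv1-78, 5 for Ighv1-4 and Ighv1-74, 4 for Ighv1-61 and Ighv6-3 and 3 for Ighv1-52. The totals of Ighv1-41, Ighv1-50, Ighv1-55, Ighv1-59, Ighv1-62-3 and Ighv1-69, which complete the 15 highest with ties broken by name, were 2 counts each. The 193 V segments outside the leading 3 held 19, 12, 18 and 9 counts in all, with at most 3 in a library and at most 6 in total for any segment. Because V family 1 holds near-identical members and how multi-mapping reads were handled is not given in the sources used here, the assignment of reads among them is uncertain.

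By class, the summed level with EV-RV and IRF4-RV was 2085 ± 53.7 and 2766 ± 15.3 CPM for constant genes (log2 ratio 0.41) and 23.2 ± 0.406 and 34.2 ± 1.77 CPM for J genes (0.56). It was 4.28 ± 0.716 and 6.27 ± 0.183 CPM for D genes (0.55), 6.70 ± 0.865 and 8.59 ± 0.801 CPM for V genes (0.36), and 197 ± 1.16 and 293 ± 5.55 CPM for V pseudogenes (0.57), each as SD with n = 2. In all 5 classes both IRF4-RV libraries lay above both EV-RV libraries, which was so for 31.3% of all single genes tested. Nearly all counts of each class came from the genes tested above, so the class sums repeat those results. Without EV-RV 2, the log2 ratio of the V genes was 0.23. Whether the classes differ from each other in their log2 ratio was not tested.

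Among the genes around and between the heavy chain genes, lower calls outnumbered higher ones. Of 46 genes of other types within the locus or within 200000 bases of its ends, 13 were tested, and 1 was higher and 6 were lower with IRF4-RV, against 16.0% and 13.7% of all genes. The median log2 fold change of the 13 was -0.53. Past the constant end, 5 of 6 tested genes were lower. Tmem121, the tested gene nearest to that end, was counted 746 and 953 times with EV-RV, against 323 and 378 with IRF4-RV, a log2 fold change of -1.40 (edgeR adjusted p = 0.000631, standard error 0.15). Crip2 followed at -0.83, Tedc1 at -0.67, Pacs2 at -0.66 and Crip1 at -0.30, while Mta1 was at -0.10 (edgeR adjusted p = 0.403) and not called.

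Inside the locus, 0 of 5 tested genes were called by edgeR, and 1 of them, Gm9134, had an unadjusted p under 0.05 (log2 fold change -0.53, edgeR adjusted p = 0.116). All 5 are processed pseudogenes, at means of at most 3.32 CPM. Past the V end, Zfp386, a zinc finger gene, was at 16.0 ± 1.69 and 20.4 ± 0.176 CPM (SD, n = 2 each) with a log2 fold change of 0.34 (edgeR adjusted p = 0.0593). With library size only, and also without EV-RV 2 or IRF4-RV 1, 0 neighbors were called higher. Wdr60 was lower (-0.78, edgeR adjusted p = 0.0259).

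**Figure D4:**
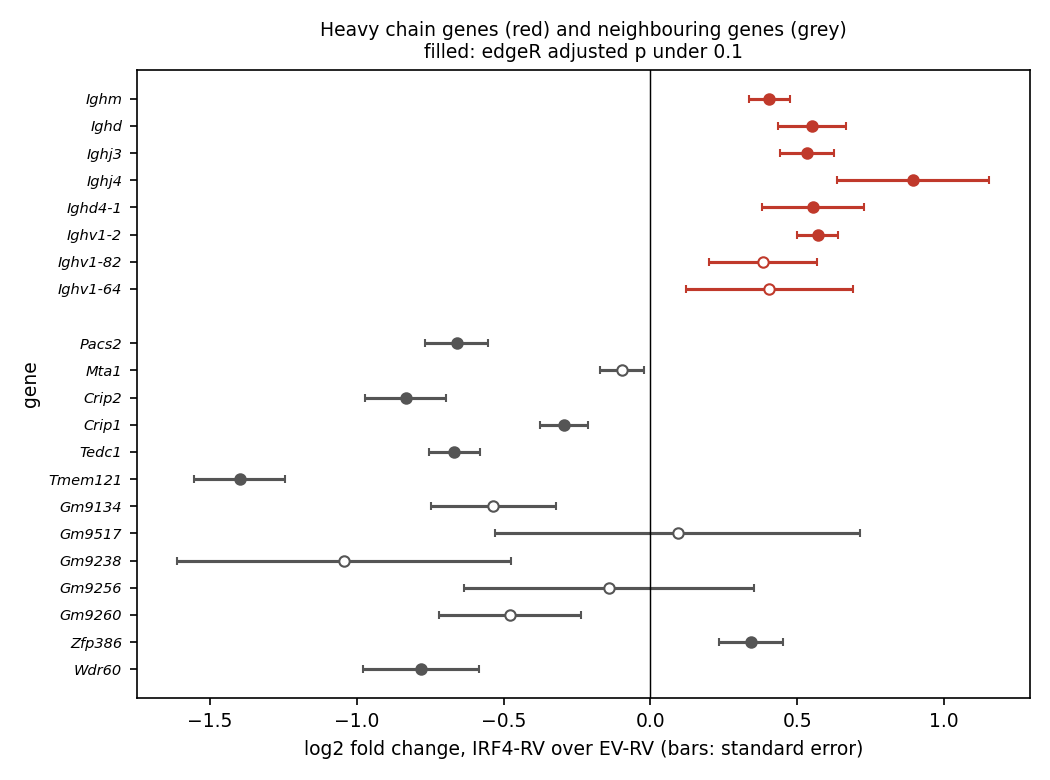
Log2 fold change of IRF4-RV over EV-RV with its standard error for the 8 heavy chain genes tested (red) and the 13 neighboring genes tested (grey), with filled points for an edgeR adjusted p under 0.1. All 8 heavy chain genes lie between 0.38 and 0.89, whereas 11 of the neighbors lie below 0.

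Genes that act on the heavy chain or with it were described from a list of 50, of which 45 were tested, 15 were higher and 14 were lower, against 16.0% and 13.7% of all genes tested. Among 10 partners of the chain, 8 were tested. The surrogate light chain genes fell, with log2 fold changes of -1.30 for Igll1, -1.49 for Vpreb1 and -1.32 for Vpreb2. Vpreb3 (0.72), Igkc (1.35) and Iglc3 (2.96, from 1 and 2 counts to 14 and 13) rose. The signaling chains were at -0.01 for Cd79a (edgeR adjusted p = 0.908) and -0.01 for Cd79b (edgeR adjusted p = 0.944), neither of them called. Iglc3 is nearly identical to other λ constant genes, so its count is uncertain.

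Among 9 recombination genes, 7 were tested. Lig4 (0.75), the ligase that closes the joint, and Dclre1c (1.19), the Artemis nuclease that opens the hairpin, were higher. Dntt, the polymerase that adds bases at the joint, was counted 86 and 90 times with EV-RV, against 34 and 31 with IRF4-RV (log2 fold change -1.55, edgeR adjusted p = 0.00575). Xrcc5 was also lower (-0.37). The recombinase genes Rag1 and Rag2 held at most 1 count in each library, under the limit of 3.

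Of 5 class switch genes tested, 5 were lower, with log2 fold changes from -0.62 for Apex1 to -0.23 for Msh6, against 13.7% of all genes called lower. Without IRF4-RV 1, 3 were lower. The tested members also act in general base excision and mismatch repair.

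Of 16 transcription factors known to act at the locus, 7 were higher and 3 were lower, against 16.0% and 13.7% of all genes. Foxo1 (1.10), Runx1 (0.93), Ikzf3 (0.82), Ets1 (0.70), Pou2f1 (0.69), Ikzf1 (0.55) and Pou2af1 (0.25) were higher. Pou2f1 encodes OCT1 and Pou2af1 its coactivator, which act through the octamer of V promoters. Spi1 (-0.45), Yy1 (-0.45) and Irf8 (-0.32) were lower. Pax5 (-0.39, edgeR adjusted p = 0.116), Ebf1 (-0.24, edgeR adjusted p = 0.172) and Tcf3 (-0.07, edgeR adjusted p = 0.527) were not called. Neither were Pou2f2 (0.18, edgeR adjusted p = 0.413), Tcf12 (0.04, edgeR adjusted p = 0.845) and Ctcf (-0.01, edgeR adjusted p = 0.925).

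Of 9 genes of the secretory form and of assembly, 3 were higher and 1 was lower, beside the same 16.0% and 13.7%. Xbp1 (0.82), a regulator of the secretory apparatus, and Prdm1 (2.13, from 8 and 9 counts to 46 and 35), which encodes BLIMP1, were higher, as was Hnrnpll (0.28, edgeR adjusted p = 0.0805). Cstf2, a cleavage factor that acts at poly(A) sites, was lower (-0.36). Jchain, which joins secreted IgM, held 8, 19, 12 and 11 counts (edgeR adjusted p = 0.722). The gene counts do not separate the membrane and secreted forms of Ighm.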

How the data were processed

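Bulk RNAseq libraries of Irf4-/- T8 cells, 2 with EV-RV and 2 with IRF4-RV, were grouped by the sample labels, whose protocol text names T11 while titles and tissue name T8. Per the submitters' processing notes, the tools were FastQC 0.11.2, STAR 2.4.0j, featureCounts and DESeq2 1.22.1, and the build was GRCm38. The authors deposited raw gene counts, which are whole numbers without normalization. Of 55359 identifiers, 52083 matched GENCODE M21, which gave types, coordinates and transcript sequences, and the rest held 0.203% to 0.486% of counts. Strand and multi-mapping settings are not given in the sources used here.

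Genes passing filterByExpr were tested with edgeR 4.0.16 (R 4.3.3; TMM, quasi-likelihood F test, Benjamini-Hochberg FDR of 0.1, no replicate block), and the procedure was tested on simulated data. CPM were scaled with TMM factors. Exact intervals were computed with SciPy 1.17.1 and alignments with Biopython 1.88. Between replicates, chi-square per degree of freedom was 14.25 and 13.24, above sampling noise. Alternatives were DESeq2 1.42.0, other scalings and filters, the replicate block, an FDR of 0.05 and leaving out each library.

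Named genes were every constant and J gene, D genes with at least 3 counts in a library, the 15 V segments with the highest mean, called V segments, the nearest and farthest counted V segments, and tested neighbors. Ighv1-5 was named after its value was seen, for its similarity, as were the list genes. The members and lists were chosen with earlier results of these data known. Recombination signals and V promoters were not analysed here. Some listed genes are not reported here.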

Additional observations from a re-analysis of the deposited data

How the results depend on the processing

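The number of heavy chain genes called, 6, was 6 with DESeq2 size factors, with library size only, and with either filter on low counts. It was 4 with DESeq2 and 5 at an FDR of 0.05, where the share of all genes was not computed. All of these calls were higher with IRF4-RV. The replicate numbers are shared between the groups, but no label says what a number marks, and deviations of same-numbered libraries correlated at 0.284 across genes, genes not being independent. In a fit with a replicate block, 7 were called, Ighv1-82 being added (edgeR adjusted p = 0.0612). Of all genes tested, that fit called 43.7%, against 29.7% in the main fit. The share of all genes called was 29.4% with DESeq2 size factors, 31.5% with library size only and 25.3% with DESeq2. It was 14.9% with the filter of at least 1 count and 31.8% with at least 10 counts in every library. Over the 8 tested genes and their alternatives, 79 values kept their direction and side of the threshold, 7 were no longer past it, 2 newly passed it and 0 changed sign. The log2 ratio of the summed level was 0.42 in the main scaling and 0.33 with library size only, and 0.40 to 0.45 with each library left out. The leading V share averaged 96.9% over libraries, 96.8% to 97.1% with each library left out, 71.1% with V pseudogenes left out and 70.6% with V segments overlapping another gene left out, both of which remove Ighv1-2. With a limit of 10 counts, 225 genes were silent in place of 223. The log2 ratio of Ighd to Ighm was 0.14, and -0.01 to 0.31 with each library left out, within the spread between replicates. Alternatives for neighbors and the pathway list were chosen after seeing the data: neighbors called numbered 5 to 7, and listed genes called 26 to 31. The downstream constant genes held at most 4 counts in a library and were not tested, and 2 libraries per group limit every spread.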
